A study of Arabidopsis thaliana with 9 samples.

Results

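The transcripts of 38 Arabidopsis thaliana genes with the names of families that build, cut, loosen or modify the cell wall were followed in a cell suspension culture under 3 light regimes. The genes were chosen by name. Each has a probe set that the array annotation assigns to exactly 1 gene, with a symbol that begins with XTH, XTR, EXPA, EXPB, EXLA, EXLB, CSL, CESA, GAUT, GATL, FUT, XXT or PME. They are 38 of the 13356 genes with such a probe set, and each had a single probe set, so no choice between probe sets was needed. The name rule uses no expression value. The 38 comprise 9 xyloglucan endotransglucosylase/hydrolases (XTH), 18 expansins, 7 cellulose synthase-like (CSL) genes, 1 galacturonosyltransferase (GAUT15) and 3 genes named PME. No CESA, GATL, FUT, XXT or XTR symbol had a probe set of 1 gene. In the gene table the XTH names cover 33 genes, the expansin names 36 and the CSL names 32, so each family was seen in part.

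Total RNA was hybridised to 9 Affymetrix ATH1 arrays, which read each transcript with short oligonucleotides. Control cells stayed at 50 microE/m2/s, the light of routine growth. Dark cells had 1 h without light, and high light cells had 1800 microE/m2/s for 30 min, so high light and dark differ in the length of the treatment as well as in light. Each group has 3 biological replicates, but whether these are separate cultures is not stated, and p-values speak only to the spread among these arrays. The labels give no genotype, ecotype or cell line. All groups came from liquid culture grown under continuous light, in which many cells are pooled. Fewer cells of a kind and less transcript per cell therefore cannot be told apart.

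A growing plant cell is enclosed by cellulose microfibrils set in xyloglucan and pectin, and it enlarges when this network yields. XTH enzymes cut xyloglucan chains and rejoin them, and expansins loosen the contacts between microfibrils and xyloglucan without cutting either. CSLC proteins make the glucan backbone of xyloglucan in the Golgi, CSLA proteins make mannans, and CSLD proteins act in tip growth and dividing cells. GAUT proteins build pectin. Pectin methylesterases remove methyl groups from it, after which calcium can cross-link the chains.

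The arrays were alike in scale, with median log2 signals of 5.55 to 5.67. High light replicates 2 and 3 stood apart from all others on the first principal component of 22746 probe sets (scores 41.5 and 45.4), and high light replicate 1, at 4.32, lay nearer to the other groups, which ran from -28.5 to -0.847. Calls that change without this replicate, and directions that turn in high light against control for GAUT15 and EXPB3, are given with and without it. Without it the direction in that comparison also turned for EXLB1, EXPA20, EXPB1, EXPB2, CSLA03 and CSLD2. The log2 change went from -0.01 to 0.22 for CSLA03 and from -0.03 to 0.17 for CSLD2. RNA quality was read from the actin, GAPDH and ubiquitin control sets as the mean log2 signal of the 3 prime sets minus that of the 5 prime sets, which was 1.32 to 1.78 in control, 1.44 to 2.01 in dark and 1.62 to 1.81 in high light. With this difference as a covariate, 0 of the 38 genes passed against control in either treatment and 1, EXLA3, passed in high light against dark. Of 22746 probe sets, this fit called 139 between high light and control, 0 between dark and control and 258 between high light and dark. Of 6 listed markers of green cells, 3 had a probe set named for 1 gene, with signals of 6.11 to 11.10. The light-harvesting gene LHCB4.2 fell in high light against control (log2 change -1.17, limma adjusted p = 0.0309) and was about as low in dark (-1.08, adjusted p = 0.502). PSAN had -0.71 in high light and -0.53 in dark, and RCA had -0.17 and -0.23. The part of this in the wall gene values was not tested. The guard cell marker FAMA (4.13 to 4.42) and the root hair markers EXPA7 and EXPA18 (4.08 to 4.53) lay close to the lower quartiles of the arrays, which were 4.05 to 4.12. The lists for dividing cells, xylem, pollen, phloem, shoot meristem and seed had 0 genes with a probe set named for that gene alone, and probe sets with no gene name were not searched for them.

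The 38 genes divided by signal. For 18 of them every array lay above its own median, and for the other 20 every array lay below it, with signals of 3.58 to 5.64. The highest of these signals, that of CSLA03 in control replicate 2, lay just under the median of that array, 5.67. The low group held 6 of 9 XTH genes, 12 of 18 expansins and both CSLA genes. The high group held XTH16, XTH18, XTH19, EXLA1, EXLA2, EXLA3, EXPA4, EXPA20, EXPB3, the 4 CSLC genes, CSLD2, GAUT15 and the 3 PME genes. Signals of different probe sets cannot be ranked against each other, and the low ones were not tested against background. In the low group the log2 changes were small in each comparison, from -0.14 to 0.20 for high light against control, from -0.22 to 0.19 for dark against control and from -0.12 to 0.21 for high light against dark. Their 95% intervals (limma) reached from -0.83 to 0.82 at the widest, and low signals can be compressed on this scale.

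High light was set against dark, the widest contrast in light. At an adjusted p under 0.05 (limma, Benjamini-Hochberg over 22746 probe sets), 0 of the 38 genes passed, where 0.897% of all probe sets did. At an unadjusted p under 0.05, 10 genes were higher in high light and 0 lower, which is 26.3% of the 38 against 4.48% of all probe sets on the higher side and 3.52% on the lower. The 10 were XTH18, XTH19, EXLA1, EXLA2, EXLA3, EXPA7, EXPA8, EXPA9, CSLC04 and CSLC12. Every high light array lay above every dark array in 9 of the 38 genes, which is 23.7% against 4.99% of all probe sets. All 9 are among these 10, which were picked by p on the same arrays, and EXLA1 was the exception. The median log2 change was 0.06 over the 38 genes and -0.04 over all probe sets. Calls depended on how the arrays were treated: without high light replicate 1, XTH18, EXLA3 and CSLC04 passed (2.97% of all probe sets did), with array weights the same 3 genes passed (2.82%), and XTH18 and EXLA3 passed in a fit blocked on replicate number (1.89%). All 3 same-numbered differences were above 0 in 14 genes (11.4% of all probe sets) and below 0 in 4 (20.1%). By family the median was 0.15 for XTH, -0.01 for the expansins, 0.15 for CSL and -0.18 for the genes named PME. Over the alternatives run these medians ranged from 0.07 to 0.87, from -0.04 to 0.19, from -0.02 to 0.38 and from -0.31 to -0.07. The XTH value of 0.87 and the expansin value of 0.19 came from a filter that kept fewer genes. It kept only the 3 XTH and 6 expansin genes with a mean above the median. With single arrays left out, XTH ranged from 0.07 to 0.19 and the expansins from -0.04 to 0.06. Leaving out high light replicate 1 gave the CSL value of 0.38.

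**Figure D1:**
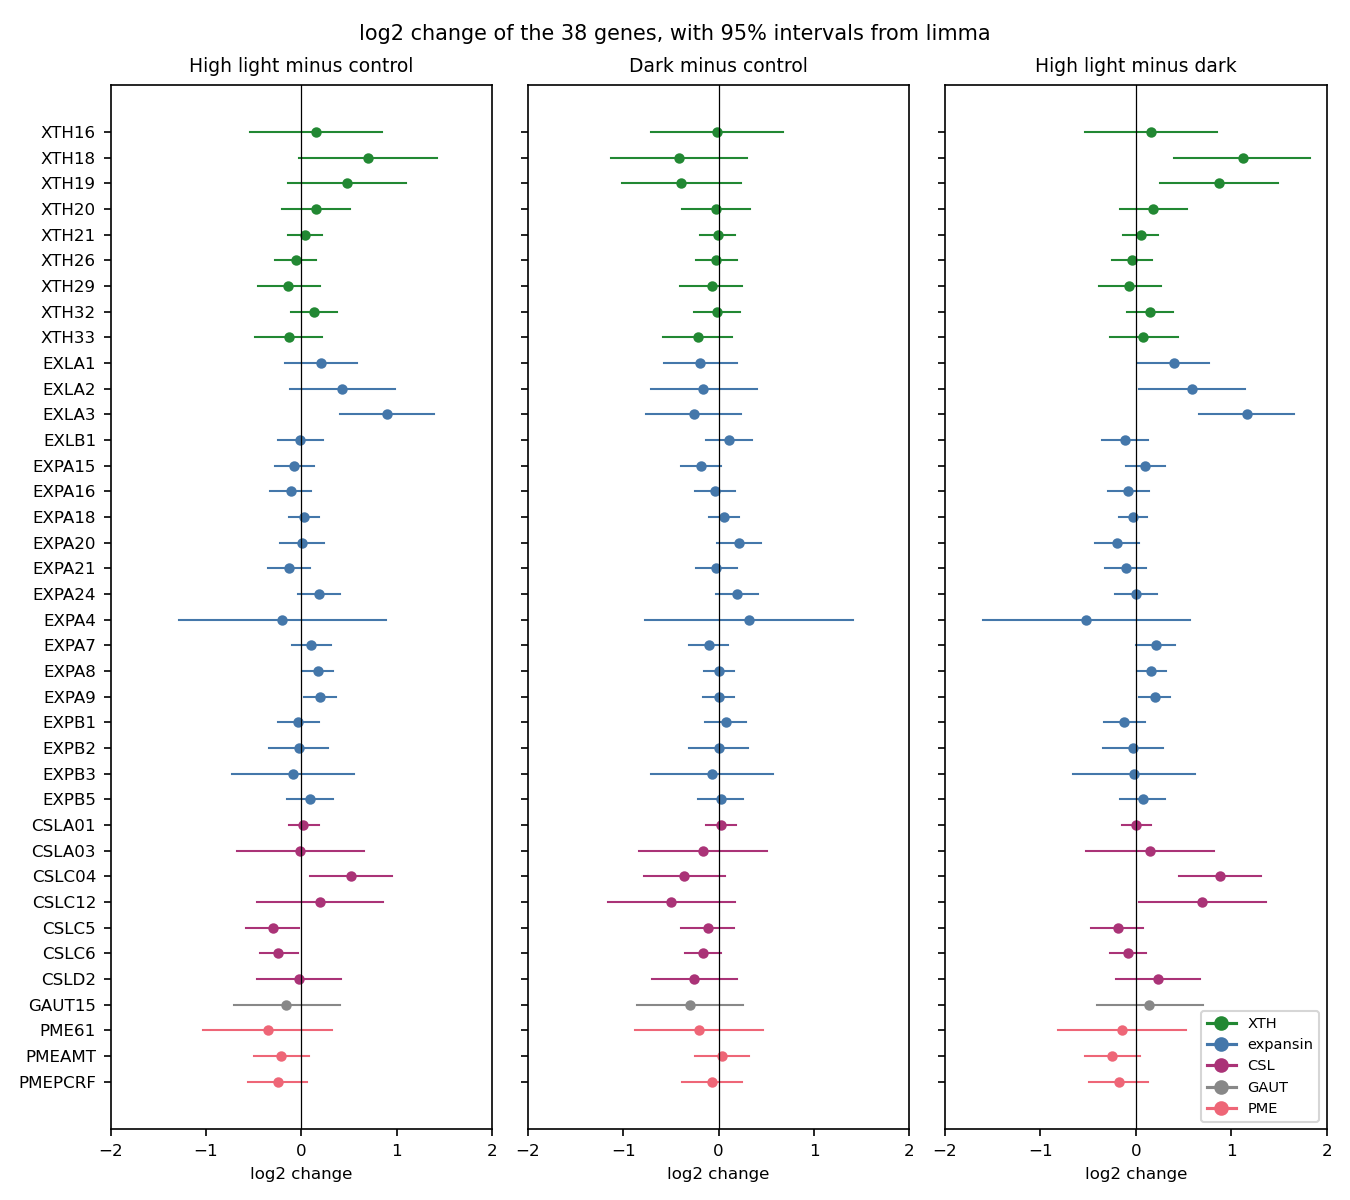
Each point is the log2 change of 1 gene in 1 of the 3 comparisons and each line its 95% interval from limma, with colours for the families. In high light minus dark, EXLA3 (1.16), XTH18 (1.12), CSLC04 (0.88) and XTH19 (0.87) lie farthest to the right, and EXPA4 has the widest interval (-1.60 to 0.57).

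Among the XTH genes, XTH18 (AT4G30280) had the largest difference between high light and dark. Its log2 signals were 9.88, 10.84 and 10.57 in control replicates 1 to 3, 9.86, 9.90 and 10.28 in dark, and 10.50, 11.33 and 11.55 in high light. All high light arrays were above all dark arrays, while high light replicate 1 was below control replicates 2 and 3. The signal was 2.17-fold higher in high light than in dark (log2 change 1.12, SE 0.31, limma adjusted p = 0.269). Without high light replicate 1 the log2 change was 1.43 and the adjusted p 0.0342. Over the alternatives run this change ranged from 0.90 to 1.43. Against control, high light had a log2 change of 0.70 (SE 0.31, 95% interval -0.02 to 1.42, adjusted p = 0.586). The differences between same-numbered arrays in that comparison were 0.62, 0.49 and 0.99, higher in 3 of 3.

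XTH19 (AT4G30290), a close relative of XTH18 and its direct neighbour in the gene table (assembly TAIR10.1), had a similar profile. Its signals were 10.37, 11.10 and 10.66 in control, 10.42, 9.81 and 10.73 in dark, and 10.84, 11.26 and 11.46 in high light. Again the high light arrays cleared all dark arrays and overlapped control, through control replicate 2. High light against dark gave a log2 change of 0.87 (SE 0.27, limma adjusted p = 0.358) and high light against control 0.48 (SE 0.27, adjusted p = 0.720). Dark against control gave -0.39 (SE 0.27), with same-numbered differences of 0.05, -1.29 and 0.07, so this value came from replicate 2. Both probe sets carry names without the suffix that marks shared probes, as do all 38, but cross-hybridisation between the neighbours was not tested.

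The other XTH genes differed less. XTH16, the remaining member above the array medians, had 7.75, 8.56 and 7.81 in control, 7.61, 7.87 and 8.60 in dark, and 7.85, 8.42 and 8.30 in high light, so its groups overlapped fully. In each group replicate 1 was its lowest array. XTH33 had a log2 change of -0.13 (SE 0.16) in high light and -0.22 (SE 0.16) in dark, both against control. XTH32 had 0.13 (SE 0.11) in high light against control, and XTH21 had 0.04 (SE 0.08). XTH20, XTH26 and XTH29 had log2 changes of 0.15, -0.06 and -0.14 in the same comparison, with SEs of 0.16, 0.09 and 0.14. In dark against control all 9 XTH genes had a log2 change below 0, from -0.42 to -0.01, as had 51.5% of all probe sets. Leaving out single arrays put 4 to 9 of them below 0, with 4 without control replicate 3 and 5 without dark replicate 2. No unadjusted limma p in that set was under 0.05, and for 6 of the 9 genes the value was -0.07 or nearer to 0.

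Of the 18 expansin genes, 3 are EXLA genes. They encode expansin-like A proteins, which share the expansin fold and for which wall-loosening activity is not established. EXLA3 (AT3G45960) had signals of 10.34, 11.05 and 10.60 in control, 10.44, 10.06 and 10.71 in dark, and 11.31, 11.70 and 11.68 in high light. It was the 1 gene above the array medians whose high light arrays all lay above every control and every dark array. Taken singly, 4.32% of all probe sets had high light above control in this way and 4.99% above dark. The share with both was not computed. The log2 change was 1.16 in high light against dark (2.23-fold, SE 0.22, 95% interval 0.66 to 1.66, limma adjusted p = 0.0569). Against control it was 0.90 (1.86-fold, SE 0.22, adjusted p = 0.182), and the same-numbered differences were 0.96, 0.65 and 1.07. Without high light replicate 1 these changes were 1.29 (adjusted p = 0.0303) and 1.02 (adjusted p = 0.0793). Over the alternatives run they ranged from 0.99 to 1.38 and from 0.73 to 1.09. The call in high light against dark thus lay at the threshold: it was made in 9 of 20 other settings, including a fit with the RNA quality difference as a covariate (adjusted p = 0.0405), and missed in 11.

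EXLA1 (AT3G45970) lies directly beside EXLA3 in the gene table. Its signals were 12.40, 12.75 and 12.56 in control, 12.24, 12.26 and 12.65 in dark, and 12.53, 12.76 and 13.06 in high light. High light replicate 1 was below dark replicate 3, so its groups overlapped. On the log2 scale high light exceeded dark by 0.40 (SE 0.16, limma adjusted p = 0.586) and control by 0.21 (SE 0.16, adjusted p = 0.827), or by 0.53 and 0.34 without high light replicate 1. Over the alternatives run these values ranged from 0.26 to 0.53 and from 0.07 to 0.34. EXLA2 (AT4G38400) had 9.62, 10.28 and 9.25 in control, 9.57, 9.32 and 9.78 in dark, and 9.94, 10.28 and 10.20 in high light. Control replicate 2 matched the high light arrays, and the other control arrays were nearer to those of dark. In high light the log2 change was 0.59 against dark (SE 0.24, adjusted p = 0.588) and 0.43 against control (SE 0.24, adjusted p = 0.716). For all 3 EXLA genes the same-numbered differences were above 0 in 3 of 3 cases in both comparisons with high light, though at 0.01 for EXLA1 and for EXLA2 in replicate 2 against control.

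**Figure D2:**
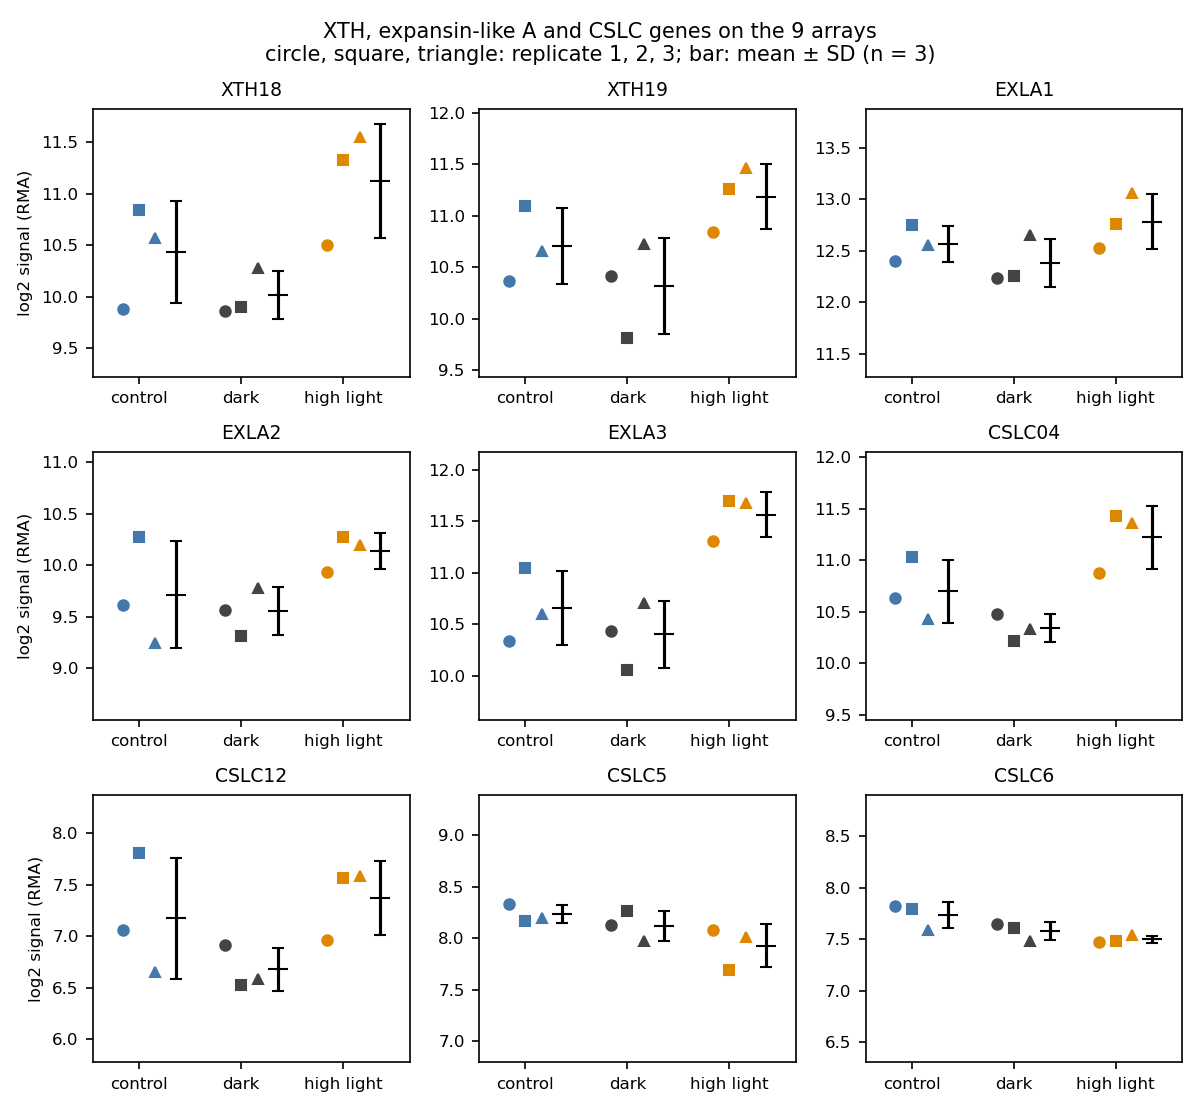
Log2 signal (RMA) of 2 XTH, 3 EXLA and 4 CSLC genes on each array, by group, with circles, squares and triangles for replicates 1, 2 and 3 and bars for the mean ± SD (n = 3); each panel spans the same height on the log2 scale. High light arrays of XTH18, XTH19, EXLA2, EXLA3, CSLC04 and CSLC12 lie above all dark arrays, control replicate 2 is the highest control array in these genes, and CSLC5 and CSLC6 lie lower in high light than in control.

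EXPA4 (AT2G39700), an alpha-expansin with a high signal, varied more within groups than between them. It had 11.70, 10.91 and 10.95 in control, 12.05, 12.08 and 10.39 in dark, and 11.60, 10.85 and 10.52 in high light. Dark replicates 1 and 2 were the highest of the 9 arrays and dark replicate 3 the lowest. The log2 change in dark against control was 0.32 (SE 0.48), and without dark replicate 3 it was 0.88 (limma adjusted p of 1 with and without). High light against dark gave -0.52 (SE 0.48, adjusted p = 0.851), and -1.07 without that replicate.

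EXPA20 had 6.50, 6.50 and 6.33 in control, 6.71, 6.70 and 6.55 in dark, and 6.55, 6.53 and 6.27 in high light. It was the 1 gene of the 38 whose dark and control arrays did not overlap, with dark higher as in 2.89% of all probe sets and a log2 change of 0.21 (SE 0.10, adjusted p = 1). EXPA9 and EXPA8, both below the array medians, had high light arrays above all the other 6. The share of all probe sets with this pattern was not computed. EXPA9 had 3.69, 3.63 and 3.71 in control, 3.70, 3.74 and 3.59 in dark, and 3.88, 3.82 and 3.92 in high light. These differences are small on the log2 scale, 0.20 (SE 0.07, adjusted p = 0.449) for EXPA9 and 0.17 (SE 0.07, adjusted p = 0.541) for EXPA8 in high light against control. EXPA7, a root hair expansin, had 0.21 in high light against dark (SE 0.09, adjusted p = 0.616). EXPA18, also known from root hairs, spanned only 0.18 over the 9 arrays. EXPA24 had 0.19 in dark and 0.18 in high light (SE 0.10 each) against control. EXPA15, EXPA16 and EXPA21 had -0.08, -0.11 and -0.13 in high light against control.

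Beta-expansins, best known for loosening grass walls, showed little difference between groups. EXPB3, the 1 member with a signal above the array medians, had 6.37, 6.57 and 5.84 in control, 5.96, 6.74 and 5.87 in dark, and 5.94, 6.55 and 6.03 in high light. Replicate 2 was its highest array in every group, and the largest of its 3 log2 changes in size was -0.09 in high light against control (SE 0.28), which was 0.03 without high light replicate 1. EXPB1, EXPB2 and EXPB5 had log2 changes of -0.04, -0.03 and 0.09 in high light against control. EXLB1 had -0.01 there and 0.11 in dark against control (SE 0.10).

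In high light against dark, CSLC04 and CSLC12 had log2 changes above 0 and CSLC5 and CSLC6 below 0, and the difference between the pairs was not tested. In dark against control all 4 were below 0, from -0.50 to -0.11. CSLC04 (AT3G28180), which encodes a xyloglucan glucan synthase, had signals of 10.63, 11.03 and 10.43 in control, 10.48, 10.21 and 10.33 in dark, and 10.87, 11.43 and 11.36 in high light. High light cleared dark on every array and overlapped control only through control replicate 2 and high light replicate 1. Against dark, high light had a log2 change of 0.88 (1.84-fold, SE 0.19, 95% interval 0.45 to 1.31, limma adjusted p = 0.0957). Without high light replicate 1 it was 1.05 with an adjusted p of 0.0170. Over the alternatives run it ranged from 0.77 to 1.05. Against control it was 0.52 (SE 0.19, adjusted p = 0.440), with same-numbered differences of 0.24, 0.40 and 0.93. In dark against control it was -0.36 (SE 0.19, adjusted p = 1), lower in 3 of 3 same-numbered pairs.

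CSLC12 (AT4G07960) had 7.06, 7.81 and 6.65 in control, 6.92, 6.53 and 6.59 in dark, and 6.96, 7.57 and 7.59 in high light. Control replicate 2 was the highest of all 9 arrays. High light against dark gave 0.69 (SE 0.29, adjusted p = 0.597) and -0.50 in dark against control (SE 0.29, adjusted p = 1), and the latter came mostly from the replicate 2 difference of -1.29.

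CSLC5 (AT4G31590) and CSLC6 (AT3G07330) had their lowest group mean in high light. CSLC5 had 8.33, 8.17 and 8.20 in control, 8.13, 8.26 and 7.97 in dark, and 8.08, 7.69 and 8.01 in high light. CSLC6 had 7.82, 7.79 and 7.59 in control, 7.65, 7.61 and 7.48 in dark, and 7.47, 7.48 and 7.54 in high light. In both genes all high light arrays lay below all control arrays. The log2 changes against control were -0.30 (SE 0.12, adjusted p = 0.510) and -0.24 (SE 0.08, adjusted p = 0.436). Both were lower in 3 of 3 same-numbered pairs. The fifth CSLC gene, ATCSLC08 (AT2G24630), lies outside the 38 because of its symbol. Its signals ran from 5.29 to 5.54, with a log2 change of -0.04 (SE 0.08) in high light against control.

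Of the other CSL genes, CSLD2, which acts in root hair growth, had 9.0, 9.41 and 9.23 in control, 8.66, 9.06 and 9.14 in dark, and 8.80, 9.35 and 9.40 in high light. Replicate 1 was its lowest array in each group. Its largest log2 change in size was -0.26 in dark against control (SE 0.19), and each same-numbered dark array was below its control. CSLA01 spanned 0.13 over the 9 arrays, and CSLA03 had -0.01 in high light against control (SE 0.29). GAUT15 (AT3G58790) had 8.78, 9.20 and 8.69 in control, 8.59, 8.16 and 9.01 in dark, and 8.37, 8.97 and 8.85 in high light, which overlap in every comparison. Its log2 changes were -0.16 in high light and -0.30 in dark against control (SE 0.24 each), and the first was 0.02 without high light replicate 1.

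**Figure D3:**
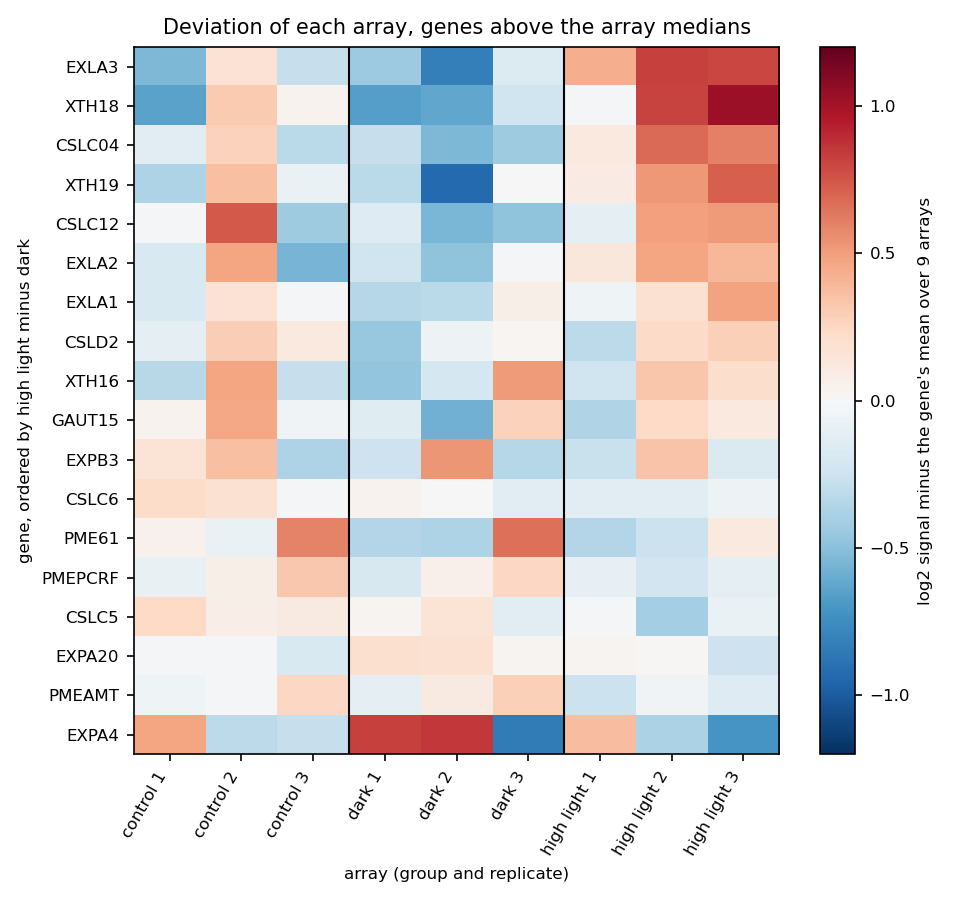
Each cell is the log2 signal of 1 gene on 1 array minus the mean of that gene over the 9 arrays, for the 18 genes above the array medians, ordered by high light minus dark. The upper rows, from EXLA3 to EXLA1, are highest on high light replicates 2 and 3 or on control replicate 2 and nearer to their mean on high light replicate 1, and PME61 is highest on replicate 3 of control and dark.

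The genes named PME gave log2 changes below 0 in high light against both other groups, though PMEAMT among them is not a pectin methylesterase gene. PME family genes with another array symbol, described below, went the other way. AT4G02300 (PME39), a low signal, had 0.17 against control and 0.20 against dark (SE 0.12 each). ATPMEPCRB (PME41) had 0.28 and 1.01 (SE 0.26 each). Against dark the changes were -0.14 (SE 0.30) for PME61 and -0.18 (SE 0.14) for PMEPCRF. The PME61 value turned to 0.06 with array weights and to 0.19 without dark replicate 3. PME61 (AT3G59010), a pectin methylesterase gene, had 11.05, 10.92 and 11.60 in control, 10.65, 10.63 and 11.66 in dark, and 10.65, 10.74 and 11.12 in high light. Replicate 3 was its highest array in all groups, and this spread was wider than the difference between groups. The log2 change in high light against control was -0.35 (SE 0.30, adjusted p = 0.842), with same-numbered differences of -0.40, -0.17 and -0.48. PMEPCRF (AT5G53370), another pectin methylesterase gene, had 10.92, 11.08 and 11.33 in control, 10.81, 11.07 and 11.25 in dark, and 10.91, 10.78 and 10.90 in high light. Its high light arrays lay just below the control arrays. The difference from control was -0.25 (SE 0.14, adjusted p = 0.691).

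PMEAMT (AT1G48600) matched the name rule but encodes a phosphoethanolamine methyltransferase of choline synthesis, not a wall enzyme. It had 9.14, 9.16 and 9.44 in control, 9.07, 9.30 and 9.47 in dark, and 8.93, 9.15 and 9.03 in high light. Its log2 change was -0.21 in high light against control (SE 0.13, adjusted p = 0.745) and -0.25 against dark (SE 0.13, adjusted p = 0.714).

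High light was also set against control for the 38 together. With limma, 0 genes passed at an adjusted p under 0.05, where 0.501% of all probe sets passed. At an unadjusted p under 0.05, 4 were higher (EXLA3, EXPA8, EXPA9 and CSLC04), against 3.87% of all probe sets, and 2 were lower (CSLC5 and CSLC6), against 4.92%. The groups did not overlap in 6 genes, EXLA3, EXPA8 and EXPA9 on the higher side (4.32% of all probe sets) and CSLC5, CSLC6 and PMEPCRF on the lower (6.85%). The log2 change was above 0 in 19 genes and below 0 in 19, where 13797 of all 22746 probe sets were below 0. With each array centred on its median the split of the 38 was 23 to 15. The labels state no pairing, though same-numbered arrays of these groups deviated together (correlations 0.261 to 0.515). With the replicate number as a block the limma adjusted p was 0.103 for EXLA3 and 0.145 for XTH18. Still 0 genes passed, while the share of all probe sets was 1.33%. All 3 same-numbered differences were above 0 in 10 genes (11.4% of all probe sets) and below 0 in 7 (21.3%).

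Dark against control gave 0 genes at an adjusted p under 0.05 and 0 at an unadjusted p under 0.05 in limma, where 0% and 2.77% of all probe sets passed. The log2 change was below 0 in 26 of the 38 genes and above 0 in 12, where 51.5% of all probe sets were below 0. The median was -0.05 against 0.00 over all probe sets. Among the 18 genes above the array medians, 15 had a value below 0, with a median of -0.17. The share over all probe sets above the medians was not computed. All same-numbered dark arrays were below control for XTH18, CSLC04, CSLC12, CSLC6, CSLD2 and PMEPCRF (13.7% of all probe sets went that way), and above control for EXLB1, EXPA18, EXPA20, EXPA24 and CSLA01 (12.6%).

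The group means stood in the order dark, control, high light in 12 genes, which is 31.6% of the 38 against 14.8% of all probe sets. They were XTH16, XTH18, XTH19, XTH20, XTH21, XTH32, EXLA1, EXLA2, EXLA3, EXPA7, CSLC04 and CSLC12. In 5 genes, EXLB1, EXPA4, EXPB1, EXPB2 and PMEAMT, the order was the reverse, against 23.9%. Neighbours in the order often did not differ beyond their spread. For XTH18 the means were 10.01 ± 0.23, 10.43 ± 0.50 and 11.13 ± 0.56 (SD, n = 3), and for EXLA3 they were 10.40 ± 0.32, 10.67 ± 0.36 and 11.56 ± 0.22. Dark and control overlapped in all 12. In replicate 2 dark minus control was -0.95 for XTH18, -0.99 for EXLA3, -0.82 for CSLC04 and -1.29 for CSLC12, while replicates 1 and 3 gave -0.02 and -0.29, 0.09 and 0.11, -0.15 and -0.10, and -0.14 and -0.07. XTH19 had -1.29 in replicate 2 and 0.05 and 0.07 in replicates 1 and 3, and EXLA2 had -0.95 and then -0.05 and 0.53. In replicate 2 XTH32 had 0.21, and EXPA7 and XTH21 had -0.04 each.

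Genes with the same family names whose array symbol is another name added 5 more: EXGT-A3 (XTH27), ATCSLC08, AT4G02300 (PME39), ATPMEPCRB (PME41) and AT4G30380 (EXLB2). With limma 0 of the 5 passed in any comparison, and ATPMEPCRB was the 1 with an unadjusted p under 0.05. In the fit blocked on replicate number it passed in high light against dark (adjusted p = 0.0132). This pectin methylesterase gene had 6.72, 7.66 and 7.04 in control, 6.29, 6.78 and 6.17 in dark, and 7.13, 7.60 and 7.52 in high light. All high light arrays lay above all dark arrays, unlike those of PME61 and PMEPCRF. The log2 change was 1.01 in high light against dark (2.01-fold, SE 0.26, adjusted p = 0.187) and -0.73 in dark against control (SE 0.26, adjusted p = 1). EXGT-A3 had 0.06 in high light against control (SE 0.16). In that comparison AT4G02300, with a mean signal of 4.31, had 0.17 (SE 0.12), and AT4G30380, with a mean signal of 3.97, had 0.04 (SE 0.08).

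**Figure D4:**
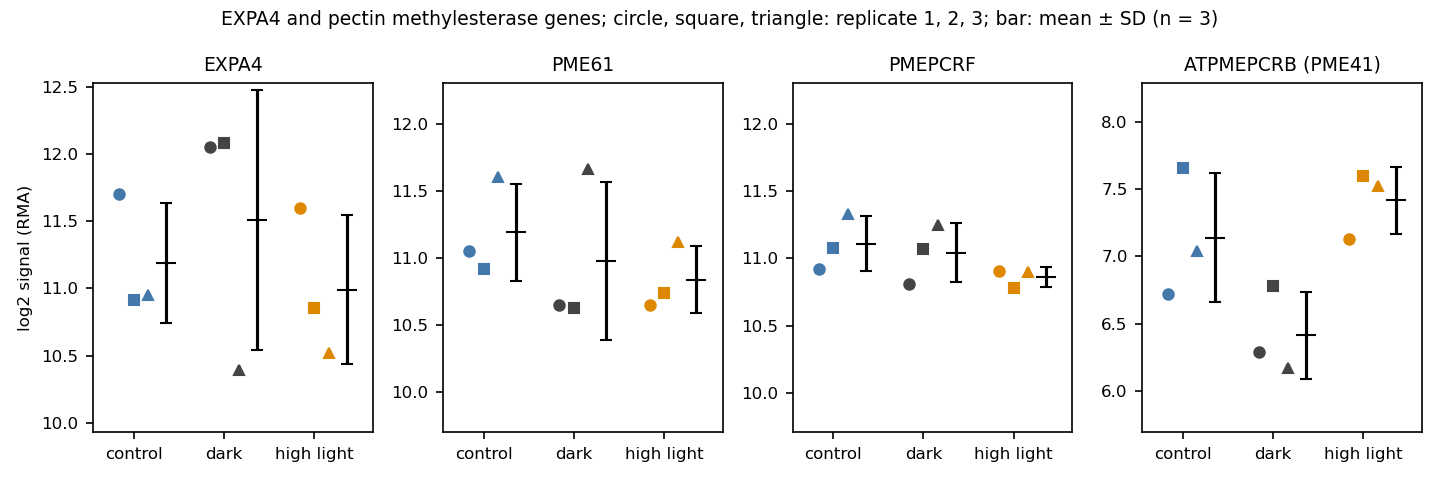
Log2 signal (RMA) of EXPA4 and 3 pectin methylesterase genes on each array, by group, with circles, squares and triangles for replicates 1, 2 and 3 and bars for the mean ± SD (n = 3). EXPA4 has dark arrays at 12.05, 12.08 and 10.39, PME61 is highest in replicate 3 of each group, and the dark arrays of ATPMEPCRB lie below its high light arrays.

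A list of 43 other wall genes had 5 with a probe set of 1 gene, and limma called 0 of them in any comparison. They were COB, which guides cellulose deposition, SKU5, a glycosyl-phosphatidylinositol-linked wall protein of directional growth, the receptor kinases FER and THE1, which sense the state of the wall, and GUT2 (listed as IRX10), a xylan synthesis gene. GUT2 had 5.24, 5.61 and 5.48 in control, 5.60, 5.60 and 5.56 in dark, and 5.82, 5.82 and 5.60 in high light. The log2 change in high light against control was 0.31 (SE 0.11, adjusted p = 0.412), the 1 value of the list with an unadjusted p under 0.05. THE1 had 0.35 in high light against dark (SE 0.31), and COB had -0.06 in high light against control (SE 0.10).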

How the data were processed

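The deposited table gives 1 log2 value per probe set and array, which the authors made with affy's RMA, per the submitters' processing notes; no version or setting is given there. The log base was taken from the range of the values. RMA includes quantile normalisation, which would hide a shift of most transcripts. Probe-level scans were not used here, and background correction could not be varied. Of 22810 probe sets, 64 Affymetrix controls were set aside and 22746 tested. Gene names came from the array annotation, where 13513 probe sets have 1 gene, 503 have several and 8730 have none. All 38 genes matched the gene table (TAIR10.1).

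One limma 3.58.1 fit (R 4.3.3, lmFit and eBayes, a mean per group, 9 arrays, 6 residual and 2.55 prior degrees of freedom) gave all 3 comparisons, with Benjamini-Hochberg adjustment over all probe sets and a threshold of 0.05. It was tested on simulated data with independent noise on each array. That test does not cover same-numbered arrays that deviate together or an outlying array. The genes, lists and comparisons were chosen with earlier results of these data known. Genes were described in full by a rule based on the F test over the groups, the extremes of change and the highest and lowest signal of each family (24 of 38). The others, and the 5 genes found through other names, were added to account for every gene. Same-numbered arrays deviated together in all 3 pairs of high light and control (correlations 0.261 to 0.515), in 2 of 3 pairs of dark and control (0.0124 to 0.632) and in 2 of 3 of high light and dark (-0.0336 to 0.485). Alternatives covered scaling, filters, variance models, array weights, the replicate block, an RNA quality covariate and each array left out. The number of arrays limits the precision.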

Additional observations from a re-analysis of the deposited data

How the results depend on the processing

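The count of the 38 genes that passed stayed at 0 for high light against control and for dark against control under every alternative run. In high light against dark it was 1 (EXLA3) with median centring, with a mean above the lower quartile or the median, with an intensity trend and robust estimation and with the RNA quality covariate, and 3 (XTH18, EXLA3, CSLC04) with array weights. The settings with 1 gene called, in that order, 235 of 22746, 270 of 17059, 237 of 11373, 292 of 22746 and 258 of 22746 probe sets. Leaving out single arrays gave 0 to 3 of the 38 genes. It was 3 (XTH18, EXLA3, CSLC04) without high light replicate 1 and 1 without control replicate 2, where 165 of all probe sets passed. The replicate block gave 2 there (XTH18, adjusted p = 0.0260, and EXLA3, adjusted p = 0.0378) and called ATPMEPCRB (0.0132), though not all pairs of these arrays deviate together. Adjusted p over the alternatives ran from 0.0124 to 0.285 for EXLA3, from 0.0260 to 0.872 for XTH18 and from 0.0147 to 0.436 for CSLC04. Over all probe sets, array weights called 387, 5 and 642 in high light against control, dark against control and high light against dark, where the equal-weight counts were 114, 0 and 204. The replicate block called 302 in the first of these and 430 in the last. An adjusted p under 0.01 left 59 and 84, and only the 6 arrays of both groups gave 131 in high light against dark. Leaving out single arrays gave 43 to 575 in high light against control (575 without high light replicate 1, 43 and 58 without 2 and 3, 64 and 61 without control replicates 1 and 3), and 76 to 675 in high light against dark (675, 76 and 84 without high light replicates 1, 2 and 3, 90 and 85 without dark replicates 1 and 2). The causes were not tested. Of the 39 largest or lowest-p single changes, none turned direction under any of 20 alternatives. This was partly set in advance, since these changes were picked for size or low p in the main fit. The filters, variance models, replicate block and stricter threshold also leave a log2 change as it is. Over all 114 changes of the 38 genes, 44 turned under at least 1 alternative, none of them over 0.20 in size on the log2 scale. Among these were GAUT15 in high light against control (-0.28 to 0.02), EXPB3 there (-0.30 to 0.07), CSLC12 there (-0.06 to 0.52) and EXLA2 in dark against control (-0.50 to 0.13). No gene had several probe sets, so the choice of probe set could not be varied.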
